A study of Mus musculus with 5 samples.

Results

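The genes examined here are 10 components of bone morphogenetic protein (BMP) and activin signalling, chosen by name from a table of 15180 genes measured in fibroblasts of mouse pancreatic tumours. They are the ligand genes Bmp2, Bmp4 and Inhba, the antagonist genes Grem1 and Fst, the receptor genes Bmpr1a and Bmpr2, and the response genes Id1, Id2 and Id3, and all 10 had a row. RNA was sequenced from pancreatic tumours of KPC mice, a genetic model of pancreatic carcinoma. The mice had been given either vehicle (3 libraries) or LDE225 (2 libraries) by oral gavage for 14 days after tumours had formed. LDE225, also called sonidegib, inhibits Smoothened, the membrane protein that relays the Hedgehog signal. The sorted cells were live by DAPI exclusion, positive for podoplanin and negative for CD45, EpCAM and E-cadherin. The labels state neither age nor strain, nor how tumours were started, nor if every library is a separate mouse. The p-values below therefore reflect only the variation among these samples, part or all of which may be technical.

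BMPs bind a complex of type I receptors such as BMPR1A and type II receptors such as BMPR2, which phosphorylate the transcription factors SMAD1, SMAD5 and SMAD9. The Id genes are among the best known direct targets of these SMADs, and ID proteins bind E proteins and keep them off DNA. Activins, which are dimers of inhibin beta subunits, use activin receptors and act through SMAD2 and SMAD3. Gremlin 1 (Grem1) traps BMP2 and BMP4 outside the cell, and follistatin (Fst) traps activins. In intestine and pancreas, Grem1 is known as a product of mesenchymal cells.

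The libraries held between 7578822 and 14083280.0 reads on the deposited genes, and both LDE225 libraries were deeper than the 3 vehicle libraries. Gli1, a Hedgehog target gene and a readout of the drug's action, was at 315, 463 and 264 normalised counts with vehicle. With LDE225 it was at 22.5 and 14.4, without overlap (limma adjusted p = 0.0355, edgeR adjusted p = 0.0552, DESeq2 adjusted p = 1.95e-20). On leaving out each library in turn its limma adjusted p ran from 0.0422 to 0.433, and it stayed under the threshold only without vehicle 2. Ptch1, another Hedgehog target gene, was at 459, 1079.6 and 526 with vehicle and at 179 and 207 with LDE225, without overlap. Its vehicle mean was 3.56 times that of LDE225. DESeq2 called it (adjusted p = 0.000896), but limma (adjusted p = 0.159) and edgeR (adjusted p = 0.181) did not. Normalised counts are read counts divided by a size factor per library, so that 1 read was worth 0.803 to 1.27 units. All 8 fibroblast markers had reads in every library. Their sum, most of it from the collagen genes Col1a1, Col1a2 and Col3a1, was lower in vehicle 1 (625794) than in the other 4 (1083919.7 to 1217313), while Pdgfra was higher in vehicle 1 (14070.2) than in vehicle 2 and 3 (9364 and 8200.03). All 8 epithelial markers had reads in every library too, and their sum was 6899, 6239 and 6473 with vehicle and 6148 and 2291 with LDE225. Markers of mesothelium, another podoplanin-positive cell type, summed to 10349, 3869 and 4826 with vehicle and to 3667 and 3549 with LDE225. Both sums were thus lower in each LDE225 library than in every vehicle library, and their part in the comparisons below was not tested. The single markers were mixed. Krt8, Krt18, Krt19, Upk3b, Upk1b and Msln were lower in both LDE225 libraries than in every vehicle library. Cdh1, Krt7, Muc1, Wt1 and Lrrn4 overlapped between the groups, and Epcam and Cldn4 were highest in LDE225 1 (687 and 720). In bulk samples such as these, fewer cells of a type and less RNA per cell cannot be told apart.

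None of the 10 genes differed between LDE225 and vehicle by the test across all genes. The values of both groups overlapped for each of them. limma on log2(value + 1) called 0 of the 10 at an adjusted p of 0.05, with 0 of the 10 at an unadjusted p under 0.05, and edgeR and DESeq2 on the recovered reads also called 0. Of all 13183 genes tested, limma called 0.0303% (0.0228% higher and 0.00759% lower with LDE225) and 12.6% had an unadjusted p under 0.05, while edgeR called 0.0152% and DESeq2 4.07% (2.3% higher and 1.77% lower). Groups without overlap were seen for 0 of the 10 genes and for 31.8% of all genes tested. For 8 of the 10 both LDE225 libraries lay between the lowest and the highest vehicle library, as did 30.5% of all genes tested. The median log2 fold change of the 10 was 0.18, against 0.0030 over all genes tested. Of the 10 values 7 were positive and 3 negative, while 50.4% of all genes tested had positive values. A p above the threshold does not show that levels were alike, and the 95% intervals given with each gene state how large a difference these 5 libraries leave possible.

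**Figure D1:**
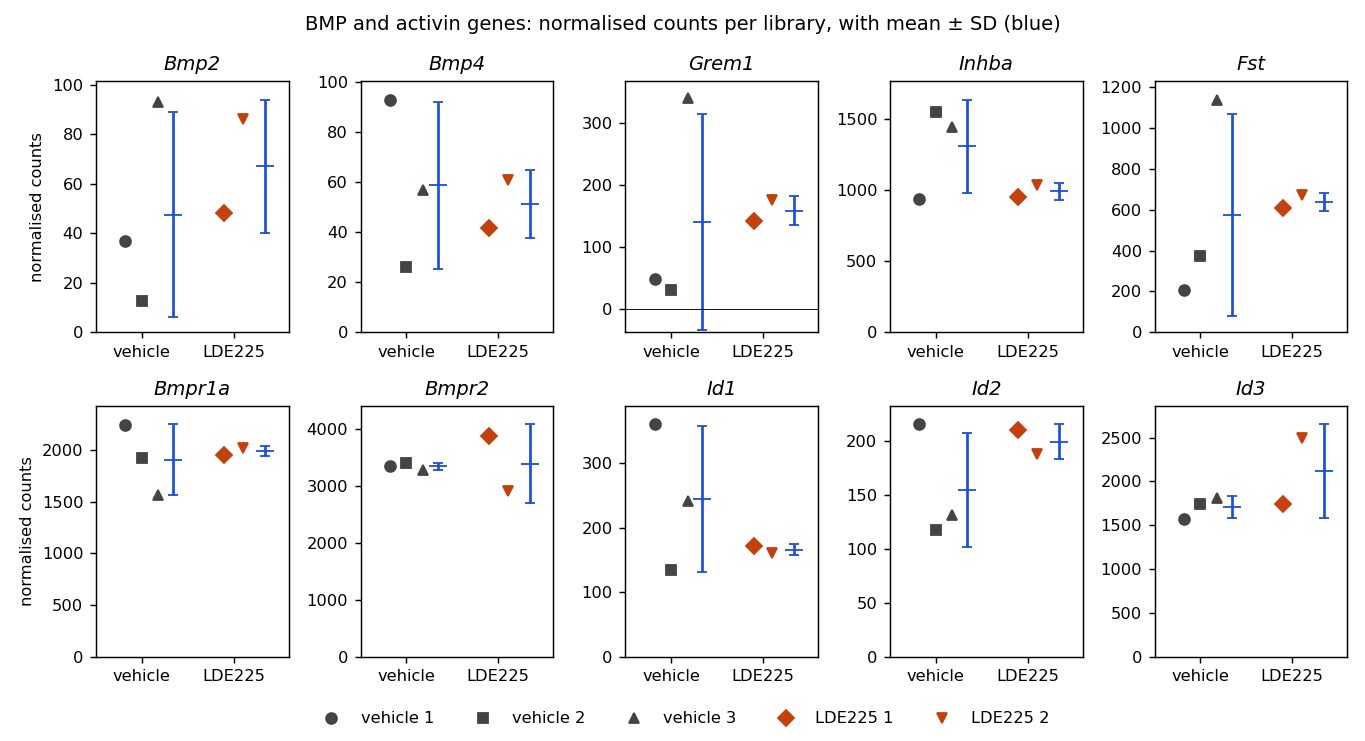
Normalised counts (vertical axis, linear) of the 10 genes in each of the 3 vehicle (grey) and 2 LDE225 (orange) libraries, with the group mean ± SD in blue (the lower end for Grem1 with vehicle runs below 0). The groups overlap in all 10 panels, and the ratio of highest to lowest vehicle library is largest for Bmp2, Grem1 and Fst, with vehicle 3 highest (93.2, 340.1 and 1140.2).

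Levels of different genes were compared after division by the total length of their annotated exons, as normalised counts per kilobase averaged over the 5 libraries. Id3 stood highest at 1045 ± 201 (SD, n = 5), followed by the receptors Bmpr1a at 306 ± 38.8 and Bmpr2 at 187 ± 19.4. Inhba (185 ± 45.5), Id1 (184 ± 78.6) and Fst (131 ± 77.1) came next. The lowest were Id2 (70.8 ± 18.5), Grem1 (35.4 ± 29.9), Bmp4 (24.8 ± 11.1) and Bmp2 (15.6 ± 9.54). Id3 exceeded Bmpr1a, and Bmpr1a exceeded Bmpr2, without any overlap over the 5 libraries. From Bmpr2 downwards the range of each gene overlapped with that of the next in this order. Compared within each library, a gene stood above the next in 3 or 4 of the 5 libraries. Differences between neighbours were not tested. Per kilobase, both BMP receptors were above both BMP ligands in every library. The length sums every annotated exon (17.983 kb for Bmpr2 and 1.16 kb for Id1), so genes with long, rarely used exons appear lower.

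**Figure D2:**
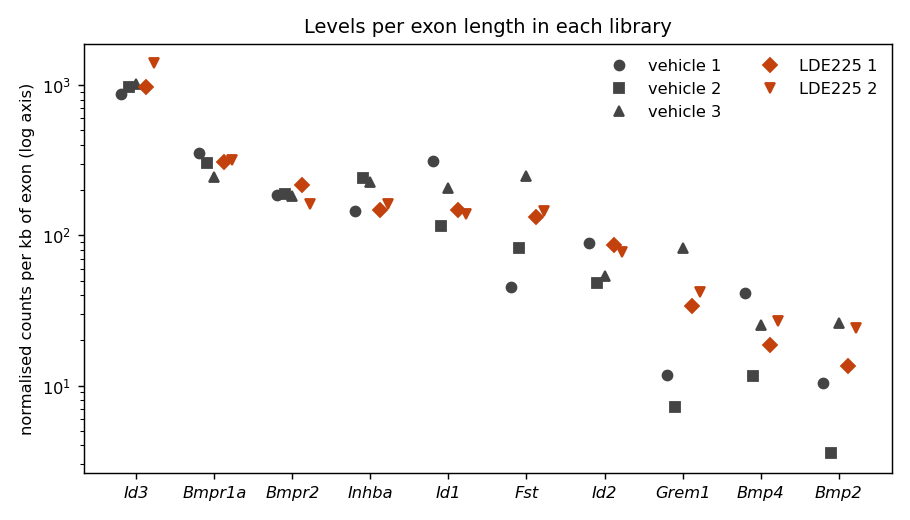
Normalised counts per kilobase of exon (log axis) of the 10 genes in the order of their mean, 1 point per library. Id3 lies at 875 or more in every library, while Bmp2 and Bmp4 lie at 41.4 or less.

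Gene positions are from GENCODE M21 on GRCm38. Among the BMP ligands, Bmp2 (chr2:133552159-133562885) was at 37.0, 12.6 and 93.2 normalised counts in vehicle 1, 2 and 3 and at 48.2 and 86.2 in LDE225 1 and 2. Both LDE225 values lay between vehicle 1 and vehicle 3, and the lowest value, in vehicle 2, rested on 13 reads. The ratio of the group means of Bmp2, LDE225 over vehicle, was 1.41. The 7.42-fold span of the vehicle libraries was reached by 4.18% of all genes tested. Its log2 fold change was 0.85 ± 0.80 (SE; 95% interval -1.07 to 2.76, limma adjusted p = 0.718). Bmp4 (chr14:46383520-46390669) was at 93.0, 26.1 and 57.1 with vehicle and at 41.8 and 60.9 with LDE225. Vehicle 1 was highest and vehicle 2 lowest, with the LDE225 libraries on both sides of vehicle 3. The vehicle span of 3.57-fold was reached by 10.1% of all genes tested. Its log2 fold change was -0.04 ± 0.56 (95% interval -1.38 to 1.30, adjusted p = 0.986), and the value turned positive without vehicle 1 (0.38), vehicle 3 (0.028) or LDE225 1 (0.23). At these levels reads ran from 13 to 102 per library for Bmp2 and from 27 to 73 for Bmp4, and exact Poisson 95% intervals, which cover counting error only, show how far that goes. For Bmp2 the interval was 6.68 to 21.5 in vehicle 2 and 73.9 to 116 in vehicle 3, and for Bmp4 it was 17.2 to 37.9 in vehicle 2 and 72.9 to 117 in vehicle 1. The vehicle libraries of both genes thus differed by more than counting error.

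Inhba (chr13:16011851-16031621) encodes the beta A subunit, which pairs with itself to form activin A. It was at 933, 1544 and 1443 normalised counts with vehicle and at 949 and 1031 with LDE225. Vehicle 2 and vehicle 3 were above both LDE225 libraries, but vehicle 1 was below both. Group means were 1307 ± 328 (SD, n = 3) for vehicle against 990.0 ± 58.2 (SD, n = 2) for LDE225, a log2 fold change of -0.37 ± 0.24 (SE; 95% interval -0.93 to 0.20, adjusted p = 0.585). This interval runs from a level 0.524 times that of vehicle to 1.15 times. The log2 fold change was -0.59 without vehicle 1 (adjusted p = 0.151) and -0.23 without vehicle 2 (adjusted p = 0.810).

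The antagonist Grem1 (chr2:113746164-113758646) varied most among the vehicle libraries, at 48.4, 29.9 and 340.1 normalised counts, and was at 141 and 175 with LDE225. Vehicle 3 exceeded vehicle 2 by 11.4-fold, a ratio reached by 2.75% of all genes tested, and the LDE225 libraries lay between. The log2 fold change was 0.98 ± 0.95 (95% interval -1.29 to 3.24, adjusted p = 0.729), while the ratio of the group means was 1.13. For the activin trap, too, vehicle 3 was highest and both LDE225 libraries came next, as Fst (chr13:114452290-114458951) was at 208, 376 and 1140.2 with vehicle and at 607 and 671 with LDE225 (a log2 fold change of 0.51 ± 0.64, 95% interval -1.01 to 2.04, adjusted p = 0.796). Its vehicle libraries spanned 5.49-fold, a ratio reached by 5.96% of all genes tested, and the LDE225 libraries lay between them. The ratio of the group means of Fst was 1.11.

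Bmp2, Grem1 and Fst therefore shared one arrangement, with vehicle 3 highest and both LDE225 libraries next, which 3 of the 10 genes and 2.21% of all genes tested showed. The arrangement was picked out after the values were seen. With vehicle 3 left out, both LDE225 libraries lay above both remaining vehicle libraries for these genes, as for 22% of all genes tested. The log2 fold change was then 2.02 for Grem1 (adjusted p = 0.141), 1.53 for Bmp2 (adjusted p = 0.468) and 1.19 for Fst (adjusted p = 0.239), so none was called. Without vehicle 2 the values were 0.29 for Grem1, 0.13 for Bmp2 and 0.39 for Fst, and without vehicle 1 the value of Fst turned to -0.036. The sum of 6 blood endothelial markers was highest in vehicle 3, at 1169, 439 and 1626 with vehicle and 809 and 1078 with LDE225. Of these markers Kdr was highest in vehicle 1 (632, against 452 in vehicle 3), and the others were highest in vehicle 3. The sum of 4 markers of lymphatic endothelium, a cell type that also carries podoplanin, was highest in vehicle 3 as well. It was 733, 250.1 and 1309 with vehicle and 559 and 772 with LDE225. Neither sum had both LDE225 libraries next after vehicle 3. Vehicle 1 was above LDE225 1 in both sums, and above LDE225 2 in the blood endothelial sum. The defining marker Emcn was at 0 in LDE225 1, and 1 of 2 entries for Ccl21a was at 0 in vehicle 1, vehicle 2 and LDE225 2. In both sums vehicle 2 was lowest, as it was for Bmp2 and Grem1, whereas Fst was lowest in vehicle 1. The part of these cell types in the spread of Bmp2, Grem1 and Fst was not tested.

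**Figure D3:**
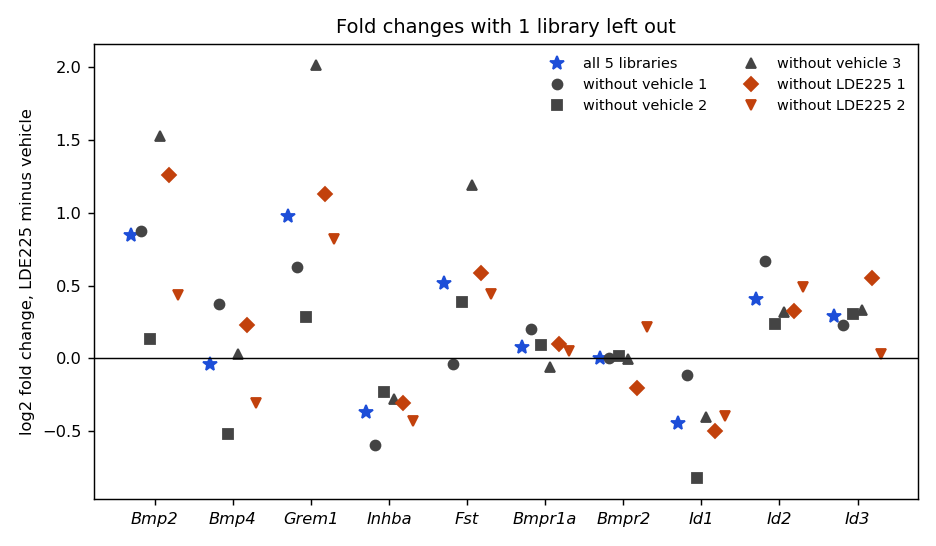
Log2 fold change (LDE225 minus vehicle, vertical axis) of the 10 genes with all 5 libraries (blue star) and with 1 library left out. Grem1, Bmp2 and Fst stand at 2.02, 1.53 and 1.19 without vehicle 3, and values of Bmp4, Fst, Bmpr1a and Bmpr2 lie on both sides of 0.

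Within a library, the balance of ligand and antagonist was followed as a ratio per kilobase, a description chosen after the values were seen. The ratio of Inhba to Fst was 3.23, 2.95 and 0.909 with vehicle and 1.12 and 1.10 with LDE225. The ratio of Grem1 to the sum of Bmp2 and Bmp4 was 0.225, 0.477 and 1.59 with vehicle and 1.06 and 0.822 with LDE225. In both ratios vehicle 1 and vehicle 2 stood on one side of the LDE225 libraries and vehicle 3 on the other. No test was made of these ratios.

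The receptors varied little among the vehicle libraries, by 1.44-fold for Bmpr1a and 1.04-fold for Bmpr2. Bmpr1a (chr14:34410734-34503341), the main BMP type I receptor, was at 2242, 1921 and 1561 normalised counts with vehicle and at 1956 and 2023 with LDE225 (a log2 fold change of 0.08 ± 0.18, 95% interval -0.36 to 0.52, adjusted p = 0.906). Bmpr2 (chr1:59763400-59879014), the BMP type II receptor, was at 3346, 3409 and 3287 with vehicle and at 3882 and 2906 with LDE225 (a log2 fold change of 0.01 ± 0.17, 95% interval -0.40 to 0.41, adjusted p = 0.996). The vehicle libraries of Bmpr2 agreed closely, and the LDE225 libraries fell on either side of them. The intervals reach at most to 1.43 times the vehicle level for Bmpr1a and 1.33 times for Bmpr2, and down to 0.778 and 0.755 times. Their small fold changes changed sign with some settings, Bmpr1a to -0.061 without vehicle 3 and Bmpr2 to -0.20 without LDE225 1.

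Of the 3 response genes, Id3 was highest per kilobase and steadiest among the vehicle libraries (1.16-fold between highest and lowest). It was at 1567, 1743 and 1812 normalised counts with vehicle and at 1738 and 2495 with LDE225. LDE225 2 stood above the other 4 libraries, while LDE225 1 lay among the vehicle values. The log2 fold change of Id3 (chr4:136143497-136145755) was 0.29 ± 0.19 (95% interval -0.17 to 0.74, adjusted p = 0.597), and it was 0.028 without LDE225 2 and 0.55 without LDE225 1. Id1 (chr2:152736251-152737410) was at 361, 134 and 241 with vehicle and at 172 and 161 with LDE225, so that vehicle values lay on both sides. Its vehicle span of 2.69-fold was reached by 15% of all genes tested. Its log2 fold change was -0.45 ± 0.40 (95% interval -1.40 to 0.50, adjusted p = 0.699), and it was -0.11 without vehicle 1 and -0.82 without vehicle 2. Id2 (chr12:25093799-25097140) was at 215, 118 and 132 with vehicle and at 210.5 and 188 with LDE225. Vehicle 1 was above both LDE225 libraries and the other vehicle libraries below them, with a log2 fold change of 0.41 ± 0.30 (95% interval -0.30 to 1.12, adjusted p = 0.636). It was 0.67 without vehicle 1 (adjusted p = 0.199) and 0.24 without vehicle 2 (adjusted p = 0.841).

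Per kilobase, Id3 supplied 68.7%, 85.6% and 79.4% of the summed Id1, Id2 and Id3 level in vehicle 1, 2 and 3, and 80.5% and 86.6% of it in LDE225 1 and 2, shares that overlap between the groups. The lowest share, in vehicle 1, went with the highest Id1 and Id2. Bmp4, Id1 and Id2 were each highest in vehicle 1 and lowest in vehicle 2, an arrangement noticed in the values that 3 of the 10 genes and 7.14% of all genes tested showed. The sum of 5 macrophage and leukocyte markers was also highest in vehicle 1 (893) and lowest in vehicle 2 (318), with 498 to 796 in the other libraries. Of the single markers, only Csf1r and Ptprc had this arrangement. Lyz2 was highest in LDE225 2 (586), Cd68 was highest in LDE225 1 (35.3), and Adgre1 was lowest in LDE225 1 (12.1). Vehicle 1 was highest in the mesothelial sum too. The summed level of 7 genes induced by tissue dissociation (Fos, Jun and others) was 99699, 45529 and 92339 with vehicle and 103722 and 121900.4 with LDE225, so it was lowest in vehicle 2 and higher in both LDE225 libraries than in every vehicle library. Of these genes Fos, Fosb, Jun and Egr1 were higher in both LDE225 libraries than in every vehicle library. Junb, Ier2 and Atf3 overlapped between the groups, with Atf3 highest in vehicle 1 (6907). The part of these cell types and of dissociation in Bmp4, Id1 and Id2 was not tested. Proliferation markers summed to between 2523 and 3076 with vehicle and to 1003 and 1149 with LDE225, without overlap. The single markers had limma adjusted p from 0.0731 (Mki67) to 0.143 (Cdk1), so none passed. Id1, Id2 and Id3 overlapped between the groups, and the part of proliferation in them was not tested.

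Promoter windows of 300 bases, from 250 before to 50 after the RefSeq start on GRCm38.p6, were on hand for 7 of the 10 genes (Bmp4, Grem1, Inhba, Bmpr1a, Bmpr2, Id2 and Id3). The core of the BMP response element, GGCGCC, which is its own reverse complement, was in 4 of the 7 (Grem1, Bmpr1a, Bmpr2 and Id2), against 11.9% of the 32851 windows searched. It began at position -78 of Grem1 and -231 of Id2, counted from the RefSeq start. The windows of Id2, Id3, Bmpr1a and Bmpr2 lie inside the gene spans of GENCODE M21, which begin further upstream than the RefSeq start. The SMAD box, GTCT or its reverse complement AGAC, was in 6 of the 7 and in 88% of all windows. An E-box, CANNTG, at which E proteins bind, was in 2 of the 7 (Bmp4 and Id2) and in 72.3% of all. The GLI site GACCACCCA, or its reverse complement TGGGTGGTC, was in 0 of the 7 and in 0.253% of all. A match describes letters and is not a binding site, and no match says only that these letters are not in this window. Shown are the 250 bases before the start of the antagonist gene Grem1 (chr2:113758649-113758898, minus strand) and of the response genes Id2 (chr12:25096093-25096342, minus strand) and Id3 (chr4:136143572-136143821, plus strand), because BMP signalling is known to act on Id genes and Grem1 had the widest spread. Each runs 5′ to 3′ on the gene's strand in lower case, with the core of the BMP response element and the SMAD boxes in capitals.
Grem1: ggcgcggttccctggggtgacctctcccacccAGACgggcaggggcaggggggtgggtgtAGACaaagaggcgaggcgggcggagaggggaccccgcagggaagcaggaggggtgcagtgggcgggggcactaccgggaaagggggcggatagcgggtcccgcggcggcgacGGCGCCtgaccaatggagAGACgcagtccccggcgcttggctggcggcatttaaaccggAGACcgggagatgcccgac
Id2: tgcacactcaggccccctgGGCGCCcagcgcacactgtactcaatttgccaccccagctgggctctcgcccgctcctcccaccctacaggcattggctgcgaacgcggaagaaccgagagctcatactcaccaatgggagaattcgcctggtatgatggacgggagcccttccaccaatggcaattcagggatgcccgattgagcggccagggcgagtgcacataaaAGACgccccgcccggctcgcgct
Id3: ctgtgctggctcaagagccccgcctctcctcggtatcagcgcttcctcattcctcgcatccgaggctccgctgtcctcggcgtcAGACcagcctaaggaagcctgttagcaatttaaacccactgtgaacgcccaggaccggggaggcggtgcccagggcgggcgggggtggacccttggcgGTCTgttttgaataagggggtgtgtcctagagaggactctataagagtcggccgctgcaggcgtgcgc
In Id2 the core element lies far from the start and a SMAD box close to it. Id3 holds the SMAD box in both orientations without the core element, and in Grem1 the core element lies between SMAD boxes.

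Other genes of the same signalling system were taken from lists by role, of which 56 genes beyond the 10 passed the filter on low values. limma called 0 of these 56, with 12 higher and 2 lower at an unadjusted p under 0.05 (6.92% and 5.71% of all genes tested). The groups did not overlap for 18 with LDE225 higher and 3 with LDE225 lower, against 16.6% and 15.2% of all genes tested. Their median log2 fold change was 0.24, with 40 positive and 16 negative values, while 50.4% of all genes tested had positive values. Named below are genes of small unadjusted p or high level, of which 0 passed limma or edgeR over all genes.

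The smallest p among these lists was that of Inhbb, which encodes the inhibin beta B subunit of activin B. It was at 705, 271 and 569 normalised counts with vehicle and at 2173 and 3661 with LDE225, so that the LDE225 libraries were separate and higher. The mean went from 515 ± 222 (SD, n = 3) to 2917 ± 1052 (SD, n = 2), a ratio of 5.66 and a log2 fold change of 2.56 ± 0.43 (SE; 95% interval 1.54 to 3.58, limma adjusted p = 0.124, edgeR adjusted p = 0.123). DESeq2 on the recovered reads called it (adjusted p = 1.49e-06), as did limma with array weights (adjusted p = 0.0461). Omitting any single library left its log2 fold change at 2.15 to 2.94. Per kilobase, the ratio of Inhbb to Inhba was 1.13, 0.264 and 0.593 with vehicle and 3.44 and 5.33 with LDE225, a pair chosen after the values were seen. Inha, the subunit that turns activins into inhibins, was at 37.7 normalised counts or less in every library.

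Of 8 BMP and GDF ligands tested, Bmp2 and Bmp4 included, 5 had positive and 3 negative log2 fold changes, and 0 passed. Bmp6 was at 72.6, 57.0 and 82.7 with vehicle and at 101 and 118 with LDE225 (a log2 fold change of 0.64, adjusted p = 0.422), the one ligand of the 8 without overlap. Gdf10 (1069, 229 and 843 with vehicle, 906 and 1302 with LDE225) and Gdf6 (709, 956 and 733, against 780.1 and 591) overlapped between the groups. Of 12 secreted antagonists tested, Grem1 and Fst included, 10 had positive values and 0 passed limma. Nbl1, a BMP antagonist of the DAN family, was at 3101, 1714 and 3389 with vehicle and at 5294 and 9318 with LDE225 (a log2 fold change of 1.42, adjusted p = 0.207, DESeq2 adjusted p = 0.00738). Chrd, which encodes the BMP antagonist chordin, was at 311, 269 and 323 with vehicle and at 369.6 and 509 with LDE225 (a log2 fold change of 0.53, adjusted p = 0.351). Fstl1, a follistatin-like secreted protein, ranged from 18232 to 31586 normalised counts, and its groups overlapped (log2 fold change 0.23, adjusted p = 0.826). Bmper, a secreted BMP binder, overlapped too (0.33, adjusted p = 0.774).

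Of 13 receptors and co-receptors tested, Bmpr1a and Bmpr2 included, 11 had positive values, and the groups did not overlap for 6 with LDE225 higher (16.6% of all genes tested), while 0 passed limma. Acvrl1, which encodes the type I receptor ALK1 for circulating BMPs, was at 683, 711 and 967 with vehicle and at 1501 and 1665 with LDE225 (a log2 fold change of 1.02, adjusted p = 0.137, DESeq2 adjusted p = 0.00157). Its co-receptor endoglin, Eng, was at 863, 1011 and 1489.5 with vehicle and at 1787 and 2348 with LDE225 (a log2 fold change of 0.91, adjusted p = 0.241). Both are best known from endothelium. The blood endothelial sum was 1169, 439 and 1626 with vehicle and 809 and 1078 with LDE225, and its part in Acvrl1 and Eng was not tested. The BMP co-receptor Rgma (log2 fold change 0.72, adjusted p = 0.188), betaglycan, Tgfbr3 (0.76, adjusted p = 0.234), and the activin type II receptor Acvr2b (1.46, adjusted p = 0.274) were also above every vehicle library in both LDE225 libraries. DESeq2 called Rgma (adjusted p = 0.0375) and Tgfbr3 (adjusted p = 0.0456).

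Of 14 SMADs and SMAD regulators tested, 9 had positive and 5 negative values, and 0 passed. Smad3, which carries activin and TGF-beta signals, was at 2198, 2029.7 and 1605 with vehicle and at 1211 and 1291 with LDE225, below every vehicle library (log2 fold change -0.62, adjusted p = 0.233). Zfyve9, which encodes the SMAD anchor SARA, was higher in both LDE225 libraries than in every vehicle library (0.47, adjusted p = 0.299), and so was the SMAD repressor Ski (0.20, adjusted p = 0.647). The inhibitory SMADs overlapped, with log2 fold changes of -0.25 for Smad6 (adjusted p = 0.755) and 0.19 for Smad7 (adjusted p = 0.833). Of 11 target genes tested, Id1, Id2, Id3, Smad6 and Smad7 among them, 8 had positive values and 0 passed. The groups did not overlap for 2 with LDE225 higher (Id4 and Smad9) and 1 with LDE225 lower (Hey1). Over all genes tested these shares were 16.6% and 15.2%. Smad9 and Hey1 were low, at 33.8 and 62.8 normalised counts or less. Id4, the remaining Id gene, was at 42.1, 46.3 and 82.7 with vehicle and at 129 and 127 with LDE225 (a log2 fold change of 1.21, adjusted p = 0.260), so it was the only Id gene without overlap. Whether Id4 differed from the other Id genes in its response was not tested.

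Among the 3 E proteins that ID proteins bind, Tcf4 was at 1219.6, 1291 and 1388 with vehicle and at 1981 and 2564 with LDE225 (a log2 fold change of 0.80, adjusted p = 0.154, DESeq2 adjusted p = 0.00359). Tcf3 (-0.27, adjusted p = 0.667) and Tcf12 (0.07, adjusted p = 0.889) overlapped between the groups. Of 6 genes for ligand processing, the proprotein convertase gene Pcsk6 was at 138, 121 and 409 with vehicle and at 461 and 876 with LDE225 (a log2 fold change of 1.74, adjusted p = 0.282). Tll1, a protease that cleaves chordin, was lower in both LDE225 libraries than in every vehicle library (-1.13, adjusted p = 0.294), while Bmp1, a protease of the same family despite its name, was at 8471 or more throughout and overlapped (0.29, adjusted p = 0.678).

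**Figure D4:**
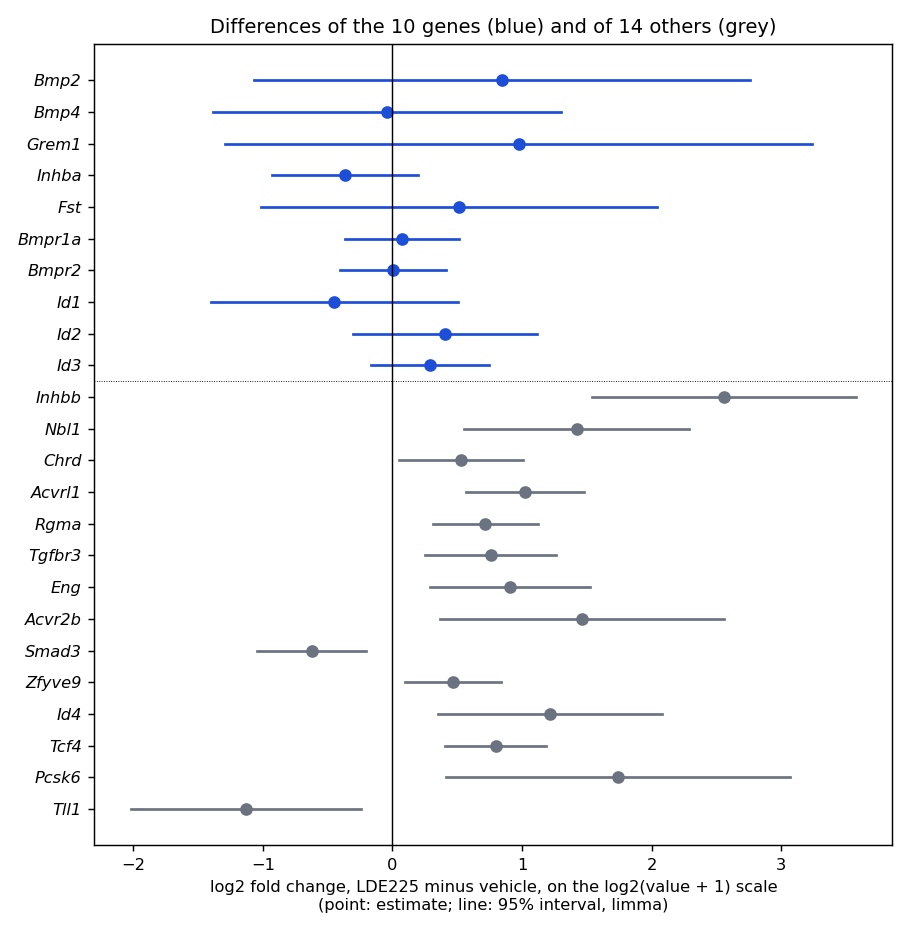
Log2 fold change (LDE225 minus vehicle, horizontal axis, on the log2(value + 1) scale) with its 95% interval for the 10 genes in blue and for 14 other genes of the system, those with an unadjusted p under 0.05, in grey. All 10 blue intervals include 0, and of the values plotted Inhbb, at 2.56, lies farthest from it.

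**Figure D5:**
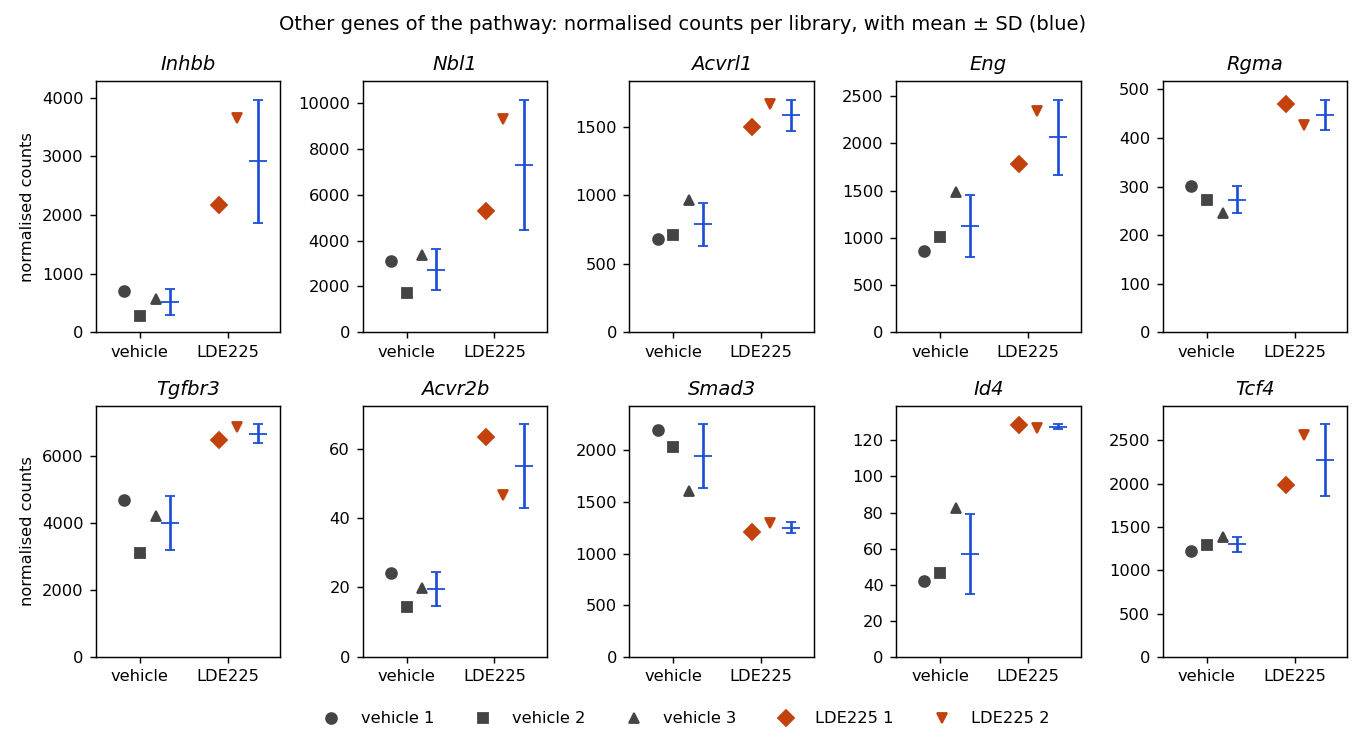
Normalised counts (vertical axis, linear) of 10 other genes of the system in each library, with the group mean ± SD in blue. Smad3 is lower in both LDE225 libraries (1211 and 1291) than in every vehicle library, and the other 9 are higher, Inhbb at 2173 and 3661.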

How the data were processed

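RNA was measured in sorted podoplanin-positive tumour cells from 3 vehicle and 2 LDE225 samples, grouped by title. Libraries were made from ribosome-depleted RNA with a directional kit, per the labels' protocols. The authors deposited a signal per gene, namely read counts divided by DESeq2 size factors, for 15180 genes. The submitters' processing notes name STAR 2.7.3, RSEM 1.2.29, DESeq2 1.22.2 and GRCm38, without role or order. Annotation, gene filter and strand setting of the counting are unstated. In GENCODE M21, genes on the opposite strand overlap the spans, introns included, of Bmp4, Inhba, Fst and Bmpr1a. Among other genes named, the same holds for Gli1, Bmp6, Chrd, Acvrl1, Acvr2b, Eng, Rgma, Tgfbr3, Zfyve9, Id4, Tcf12, Pcsk6 and Tll1. Whether their exons overlap was not examined. Where exons do overlap, reads cannot be told apart without strand. The table's 3 unnamed columns were not used.

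The deposited signal values gave whole reads in 100% of cases, within 0.001 reads, when divided by the worth of 1 read. This came to 7578822, 11194991 and 9319936 reads for vehicle 1 to 3, and to 13671817 and 14083280.0 for LDE225 1 and 2. Every pair of libraries differed by more than sampling noise (chi-square over its degrees of freedom from 22.8 to 125).

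limma 3.58.1 (R 4.3.3, mean trend) compared the groups on log2(value + 1) across the 13183 genes whose mean reached 10. Tests were two-sided, p-values were adjusted by Benjamini-Hochberg over that whole set, and the threshold was 0.05. The pseudocount understates changes of low genes, and all 10 genes passed the filter. Alternatives were edgeR 4.0.16 (quasi-likelihood, TMM) and DESeq2 1.42.0 on recovered reads, other pseudocounts, filters, scalings and variance models, a replicate block, and omission of each library.

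The 10 genes and all lists were chosen with earlier results of these data known. Other genes could be named by rule, up to 5 per list by smallest p and 2 by mean level, and the text describes a part of them. Exon lengths came from GENCODE M21 and promoters from RefSeq. Protein sequences were not used here.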

Additional observations from a re-analysis of the deposited data

How the results depend on the processing

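The 10 genes were recomputed under 18 alternatives, giving 180 values, of which 0 passed the threshold and 163 kept their direction. The smallest adjusted p was 0.112 (Grem1, limma with a replicate block). For the 10 genes the block gave the same log2 fold changes as leaving out vehicle 3, so these 2 alternatives are not independent. The 17 values that changed sign belong to Bmp4, Fst, Bmpr1a and Bmpr2, and the cause was not tested. The log2 fold change of Bmp4 was 0.043 with array weights and 0.028 with the block, and -0.52 to 0.38 on leaving out a library. Fst was at -0.057 with array weights and -0.036 to 1.19 on leaving out a library. Scaling to the same total, which moved the median of all genes to -0.13, gave -0.057 for Bmpr1a and -0.13 for Bmpr2. Bmpr1a was at -0.0050 with quantile normalisation, -0.061 with the block and -0.061 to 0.20 on leaving out a library. Bmpr2 was at -0.016 with the same upper quartile, -0.083 with quantile normalisation, -0.0080 with the block and -0.20 to 0.21 on leaving out a library.

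Over all genes, 3 were called higher and 1 lower. These counts were 70 and 38 with array weights, 16 and 5 with the replicate block, and 303 and 233 with DESeq2. Lower calls came to 2 with the same total, 0 without the trend and 0 with edgeR (749 at an unadjusted p under 0.05). Leaving out a library gave 0 to 6 higher and 0 to 4 lower. The replicate numbers are shared by 2 pairs, whose deviations from their group means correlated at 0.13 and -0.017. The deviations of 2 LDE225 libraries mirror each other, so these correlations cannot decide if the numbers mark a pairing. The block leaves vehicle 3 without a partner.

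Among other genes, Tcf12 was at -0.063 with the same total and -0.025 to 0.17 on leaving out a library, and the same omissions gave Bmper -0.062 to 0.62, Fstl1 -0.020 to 0.37 and Smad7 -0.13 to 0.52. List medians moved for activin subunits (1.10 at a mean of at least 50), antagonists (0.16 with array weights, 0.19 with edgeR, 0.19 with DESeq2), receptors (0.041 with the same total, 0.40 with the block, 0.20 to 0.40 on leaving out a library) and SMADs (0.023 with the same total, 0.037 to 0.25 on leaving out a library). Bmp2 and Bmp4 had 13 to 102 reads per library, and their vehicle libraries differed by more than counting error.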
